A study of Mus musculus with 18 samples.

Results

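The colony stimulating factor genes examined here are 7 genes that encode 2 ligands (Csf1 and Il34) and 5 receptor chains (Csf1r, Csf2ra, Csf2rb, Csf2rb2 and Csf3r). They were chosen by name as a signalling family, with earlier results of these data known. Each was represented by its brightest probe set with a single gene symbol over all arrays. All 7 were measured, each by 1 probe set, among 22180 genes in all. The RNA came from microglia, the resident macrophages of the brain, of untreated C57Bl/6 mice housed free of specific pathogens. After a Percoll gradient, the sort kept CD45+, CD11b+ cells that lacked Gr1, an antigen of neutrophils and inflammatory monocytes. There were 6 groups of 3 arrays: corpus callosum and cortex at postnatal day 3 (P3), corpus callosum and cortex at postnatal day 7 (P7), and corpus callosum and cortex of adults, whose age in days the labels do not give. The labels do not say whether an array pooled animals or which sex they were, so p-values measure only the spread between these samples.

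Colony stimulating factors keep cells of the myeloid lineage alive and drive their division and maturation. Microglia depend on the CSF1 receptor, a tyrosine kinase with a pair of unrelated ligands: CSF1, made by glia and macrophages, and IL-34, which in the forebrain comes mainly from neurons. The receptor for GM-CSF joins a specific alpha chain, Csf2ra, to the common beta chain Csf2rb, which also serves IL-3 and IL-5. Mice carry a second, closely related beta chain, Csf2rb2, that works with IL-3 only. Csf3r, the receptor for G-CSF, is best known from neutrophils and their precursors.

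Values are log2 expression levels after robust multi-array averaging (RMA) by the authors, and signal was not told apart from background. Array medians lay between 5.58 and 5.74. The mean over 11 microglial markers averaged between 10.12 in callosum P3 and 11.07 in cortex adult. Markers of other cells were dimmer on average but not absent: of 11 neutrophil markers 5 lay below the array median on all 18 arrays and Cxcr2 on 0, and Lyz2, Folr2 and Mrc1 of the monocyte and border-associated macrophage lists reached 10.69, 9.88 and 11.18 on single arrays. Corpus callosum replicate 1 and cortex replicate 1 of the adults had the lowest mean correlation with the other arrays, 0.953 and 0.956 across genes. The P3 arrays carry another label prefix than the P7 and adult arrays, so age and array set cannot be told apart in P7 against P3. Differences were tested with limma over all genes, ± after a difference is a standard error and after a level a standard deviation (n = 3 arrays), and a gene was called at a Benjamini-Hochberg adjusted p under 0.05.

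Csf1 and Csf3r showed the 2 widest ranges of group means in the family. The 250 bases before 1 listed start site of each are shown so that the genes can be placed. They are the RefSeq entries of mouse build GRCm38.p6, the first at chr3:107760470-107760719 on the minus strand and the second at chr4:126024409-126024658 on the plus strand, each written 5′ to 3′ along its gene:
Csf1: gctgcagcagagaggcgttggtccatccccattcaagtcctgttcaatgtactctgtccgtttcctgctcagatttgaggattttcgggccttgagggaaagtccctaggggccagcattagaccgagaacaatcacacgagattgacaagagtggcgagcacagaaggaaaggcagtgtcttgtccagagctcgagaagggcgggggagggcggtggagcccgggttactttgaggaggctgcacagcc
Csf3r: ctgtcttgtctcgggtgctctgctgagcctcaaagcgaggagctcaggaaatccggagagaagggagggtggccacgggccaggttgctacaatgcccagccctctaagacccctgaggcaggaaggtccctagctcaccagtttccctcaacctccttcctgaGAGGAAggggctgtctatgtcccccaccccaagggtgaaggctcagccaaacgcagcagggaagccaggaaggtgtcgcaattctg
Capitals mark matches, on either strand, to any of 5 motifs: the PU.1-type ETS core GAGGAA, the AP-1 motif TGANTCA, the E-box CACGTG, the STAT motif TTCNNNGAA and the TATA box TATAAA. The Csf1 window held 0 matches. The Csf3r window held 1, a GAGGAA that begins 86 bases before the start of this entry. That start lies inside the span of the gene, 126023441 to 126044975, and so does the whole window. GAGGAA occurs in 23.3% of all 32851 windows of this length, and the other motifs, in the order given, in 6.75%, 6.02%, 7.02% and 12.4%. Windows of 4 of the 7 genes were examined, and those of Csf1r, Il34 and Csf2rb were not. The windows of Csf2ra and Csf2rb2 held 2 and 1 GAGGAA matches, and that of Csf2rb2 also 1 STAT match. The arrays measured transcripts, not binding at these windows.

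**Figure D1:**
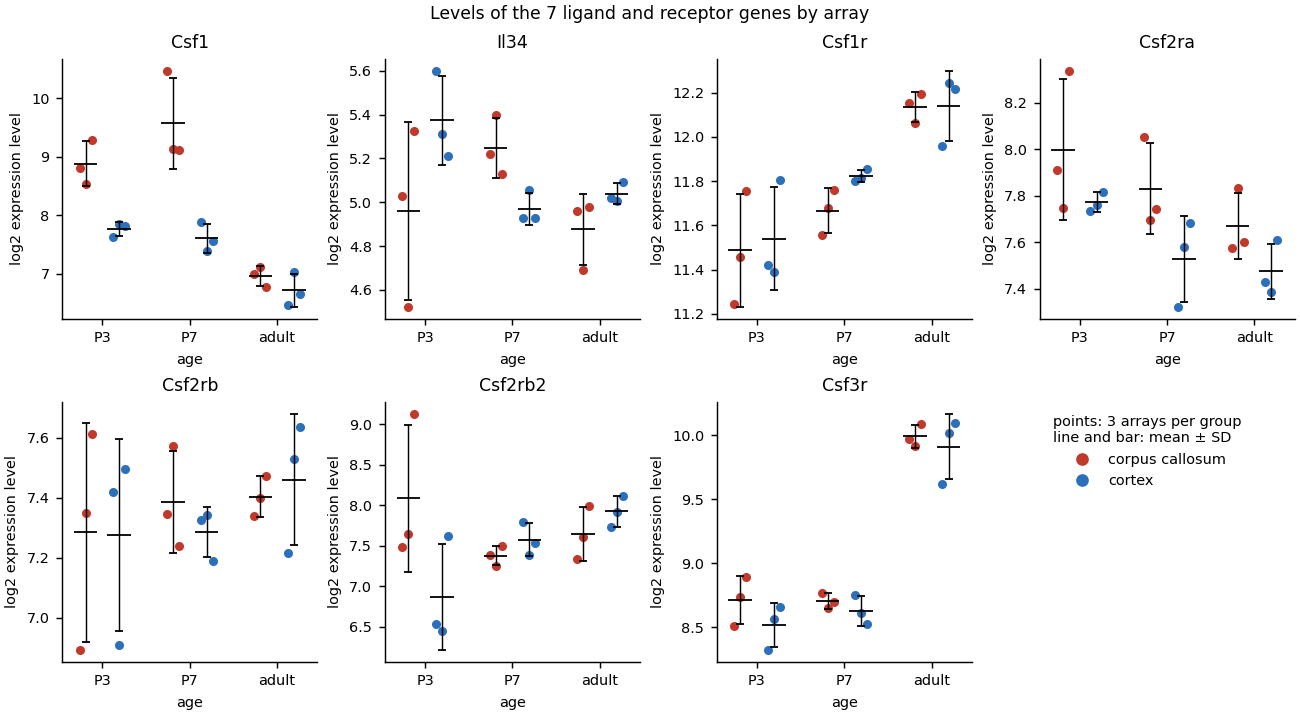
Log2 expression level (vertical axes, which differ between panels and do not start at 0) of each gene on the 18 arrays by age and region; points are arrays, lines and bars the mean ± SD of 3. Csf1 is highest in corpus callosum at P3 and P7, Csf3r is higher on all 6 adult arrays than on all others, and Csf2rb has overlapping groups throughout.

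Csf1 was the family member with a called regional difference: it was 3.90-fold higher in corpus callosum than in cortex microglia at P7, and at P3 and in adults no member was called. Of the 7 genes 1 was called at P7, against 0.451% of all genes, or 0.446% in the higher direction. At P3 limma called 0 of 7, against 0.505% of all genes, and 3 of 7 had an unadjusted p under 0.05. In adults it called 0 of 7, against 0.00451% of all genes, and 0 of 7 had an unadjusted p under 0.05. Of all 22180 genes 2848 had an unadjusted p under 0.05 at P3, 1526 at P7 and 1888 in adults. Arrays of the regions did not overlap for 1 member at P3, 4 at P7 and 1 in adults, against 15.8%, 16.7% and 12.8% of all genes. The median regional difference over the 7 genes was 0.20 at P3, 0.10 at P7 and -0.004 in adults, where that over all genes was 0.01, 0.004 and 0.01.

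At P7 Csf1 stood at 10.47, 9.13 and 9.13 log2 units in corpus callosum microglia, against 7.88, 7.39 and 7.57 in cortex microglia. All 3 callosal arrays were higher than any cortical one, and callosal replicate 1 was well above the other 2. The difference was 1.96 ± 0.28 log2 units (95% interval 1.38 to 2.55, adjusted p 0.00118), the place of Csf1 by p-value being 26 among all genes. Without callosal replicate 1 it was 1.52 (adjusted p 0.00147). That array also had the highest neutrophil marker mean at P7, 5.55, against 4.77 and 4.80 on the other callosal arrays and 4.68 to 4.87 on the cortical ones. Its means of border-associated macrophage and monocyte markers, 6.83 and 6.17, were also the highest at P7, and its microglial marker mean, 10.08, the lowest. The part of these cell types in the Csf1 value was not tested.

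At P3 Csf1 had 8.82, 8.54 and 9.30 in corpus callosum and 7.62, 7.85 and 7.82 in cortex. The regions were again separate, but the difference of 1.12 ± 0.28 (95% interval 0.54 to 1.71) did not pass, with an adjusted p of 0.0785 that ranged from 0.00664 to 0.225 over the alternatives. The lowest of these came without callosal replicate 1 of P7, an array that enters the P3 test only through the shared estimate of spread. In adults Csf1 had 6.99, 7.12 and 6.78 in corpus callosum and 6.47, 7.02 and 6.65 in cortex. These ranges overlapped, and the difference of 0.24 ± 0.28 had an interval from -0.34 to 0.83. Averaged over the 3 ages, a comparison added after the data were seen, Csf1 was 1.11 ± 0.16 higher in corpus callosum (adjusted p 0.00142) as 1 of 7 members called, against 0.618% of all genes.

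Markers of border-associated macrophages, which live at the meninges and vessels of the brain, were set beside these values. Of 9 such markers 2 were called higher in corpus callosum at P3, Folr2 and Ms4a7, and 1 at P7, Folr2. Among all genes 0.505% and 0.451% were called in either direction at these ages. At P3 4 of the 9 and at P7 2 had an unadjusted p under 0.05, against 2848 and 1526 of all 22180 genes. The median differences were 0.26 and -0.13. Folr2 averaged 8.57 in corpus callosum and 6.94 in cortex at P3, and 9.19 and 7.24 at P7. Ms4a7 averaged 6.66 and 5.13 at P3. The mean over the 9 was 6.41 to 7.03 in corpus callosum and 6.09 to 6.54 in cortex at P3, and 6.60 to 6.83 and 6.39 to 6.75 at P7, so the ranges of the regions overlapped at each of these ages. Mrc1, a defining marker of these cells, differed by -0.72 ± 0.27 at P3 (adjusted p 0.255) and by -0.48 ± 0.27 at P7 (adjusted p 0.837), and Cd163 lay below the array median on all 18 arrays. Of 8 monocyte markers 1, Lyz2, was higher in corpus callosum at P3, by 0.90 ± 0.19 (adjusted p 0.0384), and 0 at P7, where 4 had an unadjusted p under 0.05. Their mean was 6.06 to 6.57 in corpus callosum and 5.93 to 6.03 in cortex at P3, which did not overlap, and 6.00 to 6.17 and 5.95 to 6.14 at P7, which did. The microglial marker mean at P7 was lower in corpus callosum, at 10.08 to 10.41 against 10.55 to 10.66 in cortex. Of the 11 markers limma called 0, and 7 had an unadjusted p under 0.05, as had 1526 of all 22180 genes. Adult against P7, 5 of the 9 border-associated macrophage markers fell in corpus callosum and 4 in cortex, against 10.7% and 6.15% of all genes. Mrc1 fell by 4.44 ± 0.27 and 4.23 ± 0.27. The part of these cell types in the Csf1 differences between regions and ages was not tested, and in sorted bulk samples more cells of a type and more RNA per cell cannot be told apart.

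With age Csf1 fell in both regions. In corpus callosum the adult values of 6.99, 7.12 and 6.78 compare with 10.47, 9.13 and 9.13 at P7, a difference of -2.61 ± 0.28 or 6.12-fold (adjusted p 2.17e-06). In cortex 6.47, 7.02 and 6.65 in adults compare with 7.88, 7.39 and 7.57 at P7, a difference of -0.89 ± 0.28 or 1.86-fold (adjusted p 0.0477). No adult array reached a P7 array of its region. The cortical call is marginal: it was lost without any one of the 3 cortex P7 arrays or without cortex adult replicate 1 or 3 (adjusted p 0.0643 to 0.176), and with any one of 7 other arrays left out it was lost too. The callosal call held with each array left out, at up to 2.82e-05.

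The regional difference of Csf1 was smaller in adults than at P7 by 1.72 ± 0.39 log2 units (95% interval of the change -2.55 to -0.89). This test of the change did not pass, with an adjusted p of 0.0973 and an unadjusted p of 0.000369. It called 0 of 7 members, against 0.203% of all genes. An unadjusted p under 0.05 was found for 1 member and for 1628 of all 22180 genes. The same test of adults against P3 gave -0.88 ± 0.39 (adjusted p 0.333), with 0 of 7 called against 0.180% of all genes. There 2 members and 3048 of all genes had an unadjusted p under 0.05. Between P7 and P3 the Csf1 difference changed by 0.84 ± 0.39 (adjusted p 0.868), where limma called 0% of genes. In that test 3 of the 7 members and 1260 of all genes had an unadjusted p under 0.05. In order of mean level, Csf1 ran from cortex adult (6.72 ± 0.28) through callosum adult (6.96 ± 0.17), cortex P7 (7.61 ± 0.25), cortex P3 (7.76 ± 0.12) and callosum P3 (8.89 ± 0.38) to callosum P7 (9.58 ± 0.78). Neighbours overlapped at the adult pair, the young cortex pair and the young callosum pair, and were separate between these pairs.

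The genes whose levels followed Csf1 most closely were Crip1, Folr2 and Gpnmb, which encode a small LIM protein, a folate receptor and a phagocyte glycoprotein. Folr2 also belongs to the list of border-associated macrophage markers. Pearson's r over the 18 arrays was 0.98, 0.97 and 0.97 (Spearman's rho 0.96, 0.92 and 0.95), a description over arrays that fall into 6 groups and share their normalization. After the group means were taken out, r was 0.84, 0.71 and 0.74. Crip1 averaged 9.02 ± 0.51 in corpus callosum and 7.39 ± 0.15 in cortex at P7, and 6.69 ± 0.20 and 6.44 ± 0.15 in adults. Folr2 averaged 9.19 ± 0.60 and 7.24 ± 0.09 at P7, and 6.53 ± 0.04 and 6.14 ± 0.14 in adults. Gpnmb averaged 10.05 ± 0.72 and 6.81 ± 0.85 at P7, but in adults 5.63 ± 0.03 in corpus callosum and 5.68 ± 0.27 in cortex.

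**Figure D2:**
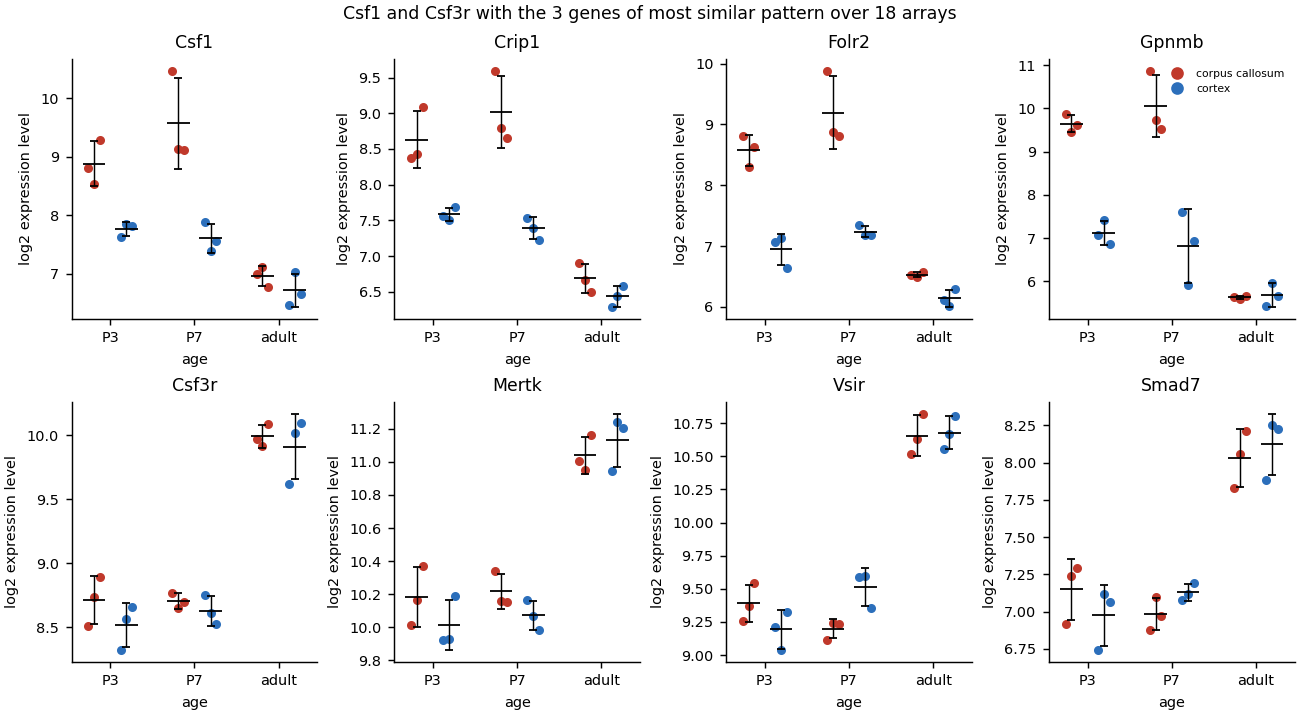
Log2 expression level by array (points), with mean ± SD of 3, for Csf1 and Csf3r (left) and for each the 3 genes with the highest Pearson correlation over 18 arrays; vertical axes differ and do not start at 0. Crip1, Folr2 and Gpnmb share the callosal excess at P3 and P7, and Mertk, Vsir and Smad7 share the higher adult level.

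Il34 was the dimmest member, below the array median on all 18 arrays, and no comparison called it. At P7 it had 5.22, 5.40 and 5.13 in corpus callosum, against 4.93, 5.05 and 4.93 in cortex. The 2 regions did not overlap, yet the difference of 0.28 ± 0.16 was small (adjusted p 0.851). At P3 it ran the other way, with 5.03, 4.52 and 5.33 in corpus callosum and 5.60, 5.31 and 5.21 in cortex (-0.41 ± 0.16, adjusted p 0.285). Without callosal replicate 2 this was -0.20. The change of the regional difference between P7 and P3 was 0.69 ± 0.23 (adjusted p 0.868, unadjusted p 0.00789). In adults it averaged 4.88 ± 0.16 in corpus callosum and 5.04 ± 0.05 in cortex, separate by a narrow gap (-0.16 ± 0.16). In corpus callosum every adult array lay below every P7 array, with a difference of -0.37 ± 0.16 that did not pass (adjusted p 0.138) but did with arrays of 1 label prefix only (adjusted p 0.0409).

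At P3 the neuron marker mean was lower in corpus callosum than in cortex. The Il34 mean was lower there too, though its arrays overlapped between regions and limma did not call it. The mean over 10 neuron markers was 5.70 to 6.25 in corpus callosum and 6.34 to 6.66 in cortex. Lower by call were 2 of the 10, Meg3 and Gap43, against 0.505% of all genes called in either direction. At P7 the neuron marker mean was again lower in corpus callosum, at 5.64 to 5.79 against 5.84 to 5.92 in cortex. The Il34 mean was higher there, again without a call. The part of neuronal RNA in the Il34 values was not tested. Group means of Il34 spanned 0.50 log2 units, from 4.88 ± 0.16 in callosum adult to 5.37 ± 0.20 in cortex P3, and each neighbour in that order overlapped the next except callosum P7 above cortex adult. Its nearest genes were Olfm1, Hspbp1 and Fzd10, at r of 0.76, 0.74 and 0.73 over the 18 arrays. For a probe set this dim, such values are a description only.

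Csf1r, the receptor on which microglia depend, was bright on every array, from 11.25 to 12.25, and higher in adult than in P7 microglia of the corpus callosum. There it had 12.15, 12.06 and 12.19 in adults, against 11.56, 11.68 and 11.76 at P7. The groups were separate and the difference was 0.47 ± 0.14, or 1.39-fold (adjusted p 0.0255). It did not pass without callosal P7 replicate 1 or 2 or callosal adult replicate 1 or 3 (adjusted p 0.0625 to 0.101).

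In cortex Csf1r had 11.96, 12.25 and 12.22 in adults, against 11.80, 11.81 and 11.85 at P7. Here too the groups were separate, but the difference of 0.32 ± 0.14 did not pass (95% interval 0.02 to 0.61, adjusted p 0.200). It passed when the arrays were quantile-normalized again, at 0.43 (adjusted p 0.0312), and with array weights, at 0.37 (adjusted p 0.0212). Averaged over both regions, a comparison added after the data were seen, the adult level was 0.39 ± 0.10 higher (95% interval 0.19 to 0.60, adjusted p 0.00651). Between regions the Csf1r arrays were separate at P7 alone, where the callosal arrays were lower. The differences were -0.05 ± 0.14 at P3, -0.16 ± 0.14 at P7 and -0.004 ± 0.14 in adults, and the interval for the mean over ages ran from -0.24 to 0.10.

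Microglial markers as a list moved with Csf1r. Of 11 markers 9 were called higher in adults than at P7 in corpus callosum and 5 in cortex, against 6.56% and 4.05% of all genes. Their median differences were 0.66 and 0.40, where the medians over all genes were 0.05 and 0.03. In adults the mean over the markers was 10.84 to 11.12 in corpus callosum and 10.85 to 11.21 in cortex, and at P7 it was 10.08 to 10.41 and 10.55 to 10.66. The part of this shift in the Csf1r difference was not tested. The genes nearest to Csf1r over the 18 arrays were Macf1, H2-DMa and Il6ra, at r of 0.97, 0.96 and 0.96, and at 0.89, 0.85 and 0.84 once group means were removed. The group means of Csf1r ran in the order of age, from 11.49 ± 0.26 in callosum P3 and 11.54 ± 0.23 in cortex P3 to 12.14 ± 0.07 in callosum adult and 12.14 ± 0.16 in cortex adult. At P3 these values carry the array set as well as the age.

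Across the family, adult against P7 called 3 of 7 members in corpus callosum (2 higher, 1 lower), against 17.2% of all genes (6.56% higher, 10.7% lower), and 2 of 7 in cortex (1 higher, 1 lower), against 10.2% (4.05% higher, 6.15% lower). Arrays did not overlap for 4 and 3 members, against 34.6% and 27.3% of all genes. Averaged over both regions 3 of 7 were called, against 22.3%. P7 against P3 called 0 of 7 in either region, against 0.739% of all genes in corpus callosum and 0.884% in cortex. In each 1 member had an unadjusted p under 0.05, against 3149 and 2892 of all 22180 genes. Arrays of 0 and 2 members did not overlap, against 18.8% and 21.3%.

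**Figure D3:**
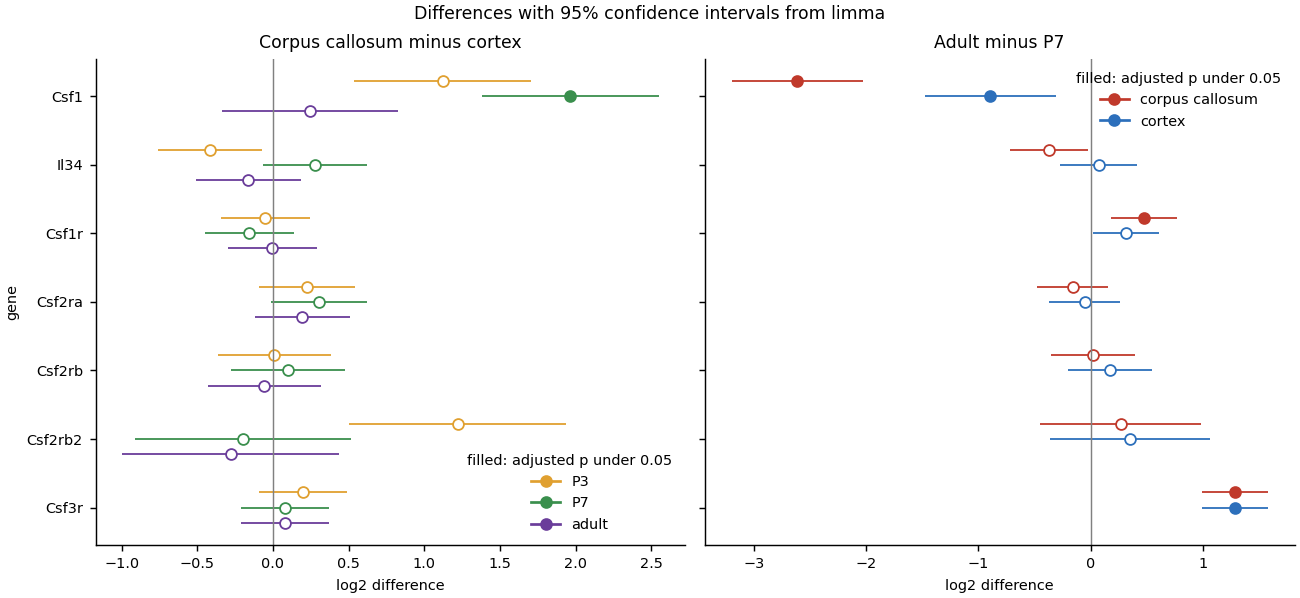
Log2 differences of the 7 genes (points) with 95% confidence intervals from limma (lines), for corpus callosum minus cortex at each age on the left and for adult minus P7 in each region on the right; filled points have an adjusted p under 0.05. On the left the filled point is Csf1 at P7 (1.96); on the right Csf3r stands at 1.28 in both regions and Csf1 at -2.61 in corpus callosum and -0.89 in cortex.

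Csf2ra, the ligand-binding chain of the GM-CSF receptor, had higher means in corpus callosum at all 3 ages, though by little. At P7 it had 8.05, 7.70 and 7.74 in corpus callosum and 7.32, 7.58 and 7.68 in cortex, which were separate by a narrow gap. The difference was 0.30 ± 0.15 (adjusted p 0.762), but 0.19 without callosal replicate 1 and 0.20 without cortical replicate 1. It was 0.23 ± 0.15 at P3 (adjusted p 0.572) and 0.19 ± 0.15 in adults (adjusted p 0.765). The mean over the ages was 0.24 ± 0.09, with a 95% interval of 0.06 to 0.42, which did not pass across all genes (adjusted p 0.299). At P3 the value rests on callosal replicate 3, without which it was 0.06. With age it differed by -0.16 ± 0.15 in corpus callosum and -0.05 ± 0.15 in cortex. Group means spanned 0.52 log2 units, lowest in cortex adult and highest in callosum P3, with every neighbour overlapping, and the nearest genes were Hilpda, Frrs1 and Spns1 (r 0.86, 0.85 and 0.84).

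Csf2rb, the common beta chain, was the flattest member. Its 6 group means lay within 0.18 log2 units, from 7.28 ± 0.32 in cortex P3 to 7.46 ± 0.22 in cortex adult, and the pooled SD within groups was 0.23. At P7 it had 7.34, 7.57 and 7.24 in corpus callosum and 7.32, 7.34 and 7.19 in cortex. The interval for the regional difference ran from -0.37 to 0.38 at P3, -0.28 to 0.47 at P7 and -0.43 to 0.32 in adults. For adult against P7 it ran from -0.36 to 0.39 in corpus callosum and from -0.20 to 0.55 in cortex. The averaged comparisons were added after the data were seen. There the interval was -0.20 to 0.23 for the regional difference over ages. For adult against P7 over regions it was -0.17 to 0.36. The genes nearest to Csf2rb were Kmt2d, Prdm10 and Cc2d1a (r 0.86, 0.85 and 0.84).

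Csf2rb2, the IL-3 beta chain, varied most at P3. There it had 7.48, 7.65 and 9.13 in corpus callosum, against 6.53, 6.45 and 7.62 in cortex. Replicate 3 was the highest in each region, and the regions overlapped because cortical replicate 3 lay between the lower callosal arrays. The difference of 1.22 ± 0.34 or 2.33-fold did not pass (adjusted p 0.120). Without callosal replicate 3 it was 0.70 (adjusted p 0.266), and without cortical replicate 3 it was 1.60 (adjusted p 0.0521).

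Callosal replicate 3 of P3 had the highest neutrophil, monocyte and border-associated macrophage marker means of all arrays, at 6.12, 6.57 and 7.03. Cortical replicate 3, the highest in Csf2rb2 of its group, had the lowest of these means at P3, at 4.78, 5.93 and 6.09. The part of these cell types in the Csf2rb2 values was not tested. At P7 Csf2rb2 had 7.38, 7.25 and 7.50 in corpus callosum and 7.80, 7.39 and 7.53 in cortex (-0.20 ± 0.34). Adult values were 7.33, 7.61 and 7.99 in corpus callosum and 7.73, 7.92 and 8.12 in cortex (-0.28 ± 0.34). The change of the regional difference between P7 and P3 was -1.42 ± 0.48 (adjusted p 0.868, unadjusted p 0.00871). All neighbouring group means overlapped, and the nearest genes were Kdm7a, Creb3l2 and the Fc receptor gene Fcgr2b (r 0.88, 0.87 and 0.87). Csf2rb and Csf2rb2 lie side by side on chromosome 15, at 78325800 to 78351001 and 78282507 to 78305721 of GRCm38.p6, and are close copies, so probes of the one can bind transcripts of the other; whether they did here was not tested.

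Csf3r, the G-CSF receptor gene, was higher in adult than in P7 microglia by the same amount in both regions. In corpus callosum it had 9.97, 9.92 and 10.09 in adults, against 8.77, 8.65 and 8.70 at P7, a difference of 1.28 ± 0.14 or 2.44-fold (adjusted p 2.6e-06). In cortex it had 9.62, 10.02 and 10.10 in adults, against 8.75, 8.61 and 8.52 at P7, a difference of 1.28 ± 0.14 or 2.43-fold (adjusted p 3.3e-06). The lowest adult array, at 9.62, lay above the highest of all 12 younger ones, at 8.89. The change of the regional difference with age was 0.002 ± 0.196 (95% interval -0.41 to 0.41).

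At P3 Csf3r had 8.51, 8.74 and 8.89 in corpus callosum and 8.32, 8.57 and 8.65 in cortex, ranges that overlapped with those at P7. P7 against P3 differed by -0.01 ± 0.14 in corpus callosum and by 0.11 ± 0.14 in cortex. The regions differed by 0.20 ± 0.14 at P3, 0.08 ± 0.14 at P7 and 0.08 ± 0.14 in adults. Group means therefore fell into 4 overlapping neighbours from 8.52 ± 0.17 to 8.71 ± 0.19 and, apart from these, cortex adult at 9.91 ± 0.26 and callosum adult at 9.99 ± 0.09. The adult differences kept their calls under every alternative that was run, between 1.19 and 1.43 in cortex and between 1.24 and 1.40 in corpus callosum.

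Neutrophils are the cells in which Csf3r is best known, and the sort left out cells with Gr1. Of 11 neutrophil markers 0 were called in adult against P7 by limma in either region, against 17.2% of all genes in corpus callosum and 10.2% in cortex. An unadjusted p under 0.05 was found for 2 in corpus callosum and 1 in cortex, against 6405 and 4517 of all 22180 genes. Averaged over both regions 1 was lower, where 22.3% of all genes were called in either direction. The differences had medians of -0.13 in corpus callosum and 0.06 in cortex. Their mean was 4.63 to 4.92 in corpus callosum and 4.58 to 4.96 in cortex of adults, and 4.77 to 5.55 and 4.68 to 4.87 at P7. Cxcr2, a chemokine receptor of neutrophils, differed by -0.81 ± 0.38 in corpus callosum and by -0.88 ± 0.38 in cortex (adjusted p 0.158 and 0.183). Ly6g, Camp, Ltf, Retnlg and Mmp8 lay below the array median on all 18 arrays, Ngp and Lcn2 on 17, Mmp9 on 14, S100a8 and S100a9 on 12 each, and Cxcr2 on 0. S100a8 reached 8.76 and S100a9 8.44. Microglial markers also rose from P7 to adult: 9 of 11 were called higher in corpus callosum and 5 in cortex. Among all genes 6.56% and 4.05% were called higher. The median differences of these markers were 0.66 and 0.40. The part of either cell type in the Csf3r values was not tested.

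The genes nearest to Csf3r over the 18 arrays were Mertk, a receptor tyrosine kinase for apoptotic cells, Vsir, an inhibitory receptor, and Smad7, an inhibitor of TGF-beta signalling. Pearson's r was 0.99, 0.97 and 0.97, and Spearman's rho 0.97, 0.78 and 0.78. Once group means were removed, r was 0.88, 0.60 and 0.71. Mertk averaged 11.04 ± 0.11 in corpus callosum and 11.13 ± 0.16 in cortex of adults, and 10.22 ± 0.11 and 10.07 ± 0.09 at P7. These points fall into an adult and a young cluster, a difference that the values within groups leave out.

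**Figure D4:**
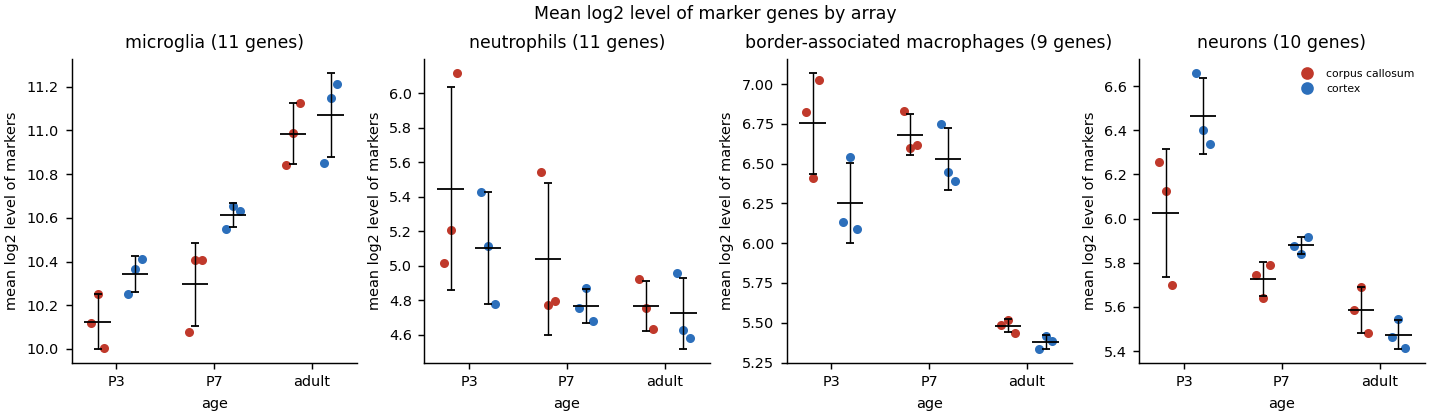
Mean log2 level over marker genes (vertical axes, which do not start at 0) on each array (points) by age and region, with mean ± SD of 3. Microglial markers are highest on adult arrays, the neutrophil mean peaks at 6.12 on corpus callosum replicate 3 at P3, and border-associated macrophage markers are lowest on adult arrays, at 5.34 to 5.52.

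The other ligands of these receptors were dim: Csf2, Csf3, Il3 and Il5, which encode GM-CSF, G-CSF, IL-3 and IL-5, lay below the array median on all 18 arrays. Of the 4 limma called 0 in any comparison, where from 0% to 22.3% of all genes were called. At most 2 had an unadjusted p under 0.05, which was in P7 against P3. Of all 22180 genes 3149 had such a p there in corpus callosum and 2892 in cortex. Among other receptor chains and IL-34 binding proteins, Il3ra, the IL-3 alpha chain, fell to 6.42 ± 0.36 in callosal microglia of adults, against 7.20 ± 0.24 at P7 (-0.78 ± 0.21, adjusted p 0.0141). Ptprz1, a phosphatase of glial precursors that binds IL-34, was lower at P7 than at P3, by -2.56 ± 0.43 in corpus callosum and -2.92 ± 0.43 in cortex (adjusted p 0.0123 and 0.00242), where array set and age cannot be told apart. Il5ra and Sdc1 lay below the array median on all arrays.

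Further down the pathways 54 of 61 listed genes were used here, those ligands and chains included. At P7 in corpus callosum against cortex 2 were higher and 0 lower, both transcription factor genes: Mitf, of the lysosome and osteoclast programmes, by 1.31 ± 0.20 (adjusted p 0.00248), and Egr2, an immediate early factor, by 1.19 ± 0.20 (adjusted p 0.00658). At P3 Bcl2, which blocks cell death, was the 1 gene called, lower in corpus callosum by -0.91 ± 0.18 (adjusted p 0.0334), and in adults 0 of 54 were called by limma and 4 had an unadjusted p under 0.05. Of all genes 0.505% were called in either direction at P3, 0.451% at P7 and 0.00451% in adults. An unadjusted p under 0.05 was found for 1888 of all 22180 genes in adults. The median difference over the 54 genes was 0.07 at P3, 0.03 at P7 and -0.04 in adults.

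Adult against P7 called 6 of the 54 higher and 8 lower in corpus callosum, and 8 higher and 4 lower in cortex, where 6.56% and 10.7% of all genes were higher and lower in corpus callosum, and 4.05% and 6.15% in cortex. Of 14 adaptors and kinases of the CSF1 receptor 2 were higher and 2 lower in corpus callosum, and 3 higher and 1 lower in cortex, against 17.2% and 10.2% of all genes called in either direction. Pik3r1, the regulatory subunit of PI3 kinase, rose by 0.65 ± 0.10 in corpus callosum and 0.57 ± 0.10 in cortex, and Inpp5d, the SHIP1 phosphatase that opposes it, by 0.72 ± 0.13 and 0.59 ± 0.13. The kinase gene Fyn fell to 6.05 ± 0.15 in corpus callosum and 6.17 ± 0.38 in cortex of adults, against 7.22 ± 0.10 and 7.37 ± 0.04 at P7 (adjusted p 3.83e-05 and 4.27e-05). Akt1 fell in corpus callosum by 0.52 ± 0.17, and Src rose in cortex by 0.58 ± 0.12.

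Of 13 genes of the JAK-STAT arm, which the GM-CSF and G-CSF receptors use, 2 were higher in corpus callosum and 1 in cortex, against 6.56% and 4.05% of all genes. Mcl1, a survival factor, rose by 0.66 ± 0.12 and 0.56 ± 0.12, and Stat5b by 0.46 ± 0.14 in corpus callosum (adjusted p 0.0306). Of 12 myeloid transcription factors 2 were higher and 3 lower in corpus callosum, and 4 higher and 1 lower in cortex, against 17.2% and 10.2% of all genes called. Egr1 rose by 1.42 ± 0.35 in corpus callosum and 1.20 ± 0.35 in cortex, Irf8 by 0.53 ± 0.14 and 0.62 ± 0.14, and Cebpa in cortex by 1.07 ± 0.16. In corpus callosum Egr2 fell by 1.22 ± 0.20, Ets2 by 0.79 ± 0.25 and Mitf by 0.66 ± 0.20. Mitf rose in cortex by 0.74 ± 0.20, and Myc fell there by 0.69 ± 0.14.

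Mitf and Egr2 at P7 and in adult against P7 share the callosal P7 arrays, so the values of these comparisons are not independent. Of 7 cell cycle and survival genes 2 were lower in each region, against 10.7% of all genes in corpus callosum and 6.15% in cortex: Cdk4 and Cdk6, kinases of the D cyclins. Cdk4 fell to 7.13 ± 0.22 in corpus callosum and 7.48 ± 0.10 in cortex of adults, against 8.52 ± 0.18 and 8.51 ± 0.12 at P7 (adjusted p 1.29e-06 and 5.76e-05). Cdk6 fell by 0.97 ± 0.19 in corpus callosum and by 1.09 ± 0.19 in cortex. The list had median differences of -0.52 and -0.20, where the medians over all genes were 0.05 and 0.03.

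**Figure D5:**
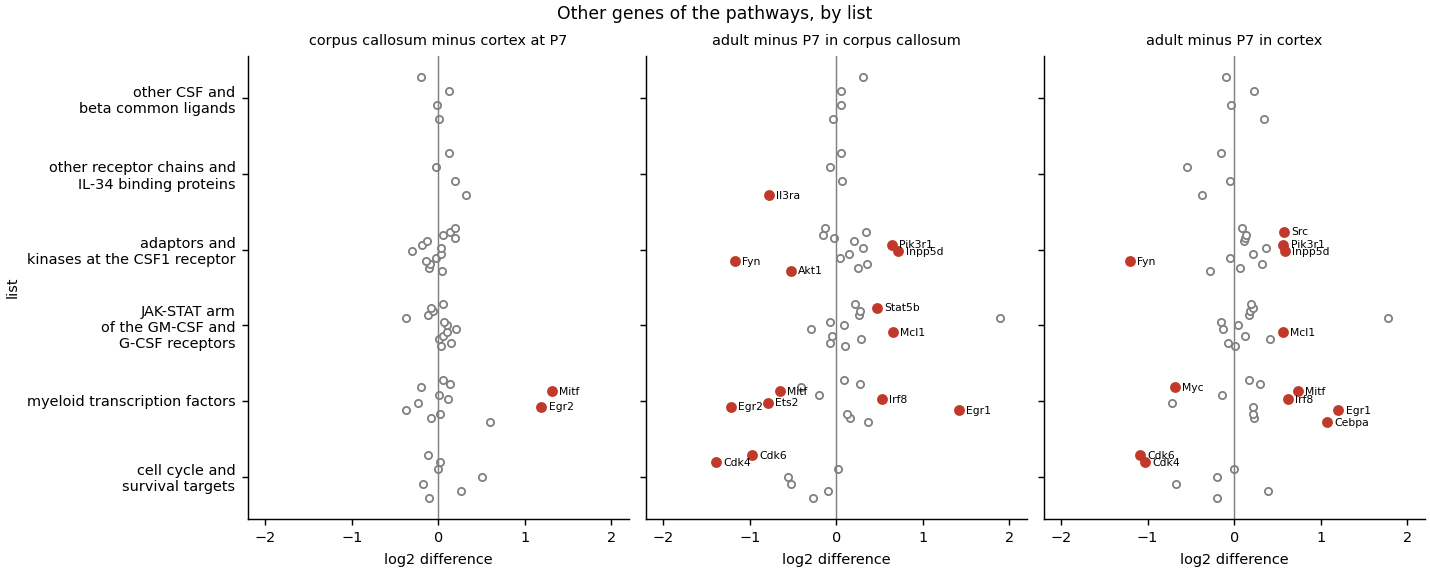
Log2 differences of other pathway genes (points, 1 per gene) by list for corpus callosum minus cortex at P7 and for adult minus P7 in each region; red named points have an adjusted p under 0.05, open ones do not. At P7 the red points are Mitf (1.31) and Egr2 (1.19), and with age Cdk4, Cdk6 and Fyn lie on the lower side in both regions.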

How the data were processed

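Log2 expression levels, 1 per probe set and array, were deposited by the authors after RMA, per the submitters' processing notes; RMA's version and the array annotation could not be read from these notes, and base 2 was taken from RMA's usual output. RMA makes array distributions alike, so a change in total RNA cannot be seen, and it compresses large differences. Of 41345 probe sets 23521 had 1 gene symbol in GEO's platform annotation, 1814 several and 16010 none. The probe set with the highest mean over 18 arrays stood for each of 22180 genes; all 7 family members had 1. Group means were fitted over all 18 arrays with limma 3.58.1 (R 4.3.3; lmFit, contrasts.fit, eBayes; 12 residual degrees of freedom), with two-sided tests and Benjamini-Hochberg adjustment over all genes. With 3 arrays against 3 the smallest two-sided exact permutation p is 0.1. The code was tested on simulated data. The members and gene lists were chosen with earlier results of these data known. Named genes were the 7 members, for each the 3 genes of highest correlation (those with only clone, locus or predicted names left out), up to 3 called genes per pathway list and direction in the regional and adult-against-P7 comparisons, and cell type markers; Ptprz1 was named after its values were seen. Of 61 pathway genes 54 were used here. Replicate numbers were not used as pairs: the labels tie them to no shared animal or day, and although the deviations of all 9 same-numbered pairs were correlated above 0 (0.016 to 0.300), 4 of 9 were above 0.1, where every pair was required to be. Alternatives covered normalization, variance trend, array weights, a filter on dim genes, the arrays fitted, the probe set rule, a replicate block and each array left out.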

Additional observations from a re-analysis of the deposited data

How the results depend on the processing

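Over 84 combinations of member and comparison, 2053 alternative values were computed: 2023 kept their side of the threshold, 19 lost a call, 11 gained a call and 0 reversed a called direction; 63 uncalled differences changed sign. Members called at P3 between regions numbered 0 in the fit reported, 1 with genes above the median level only and 2 with the replicate block within age, which added Csf1 (adjusted p 0.0306) and Csf2rb2 (adjusted p 0.00263); with single arrays left out the count was 0 to 1. In adult against P7 in cortex it was 2, and 1 to 3 over the alternatives. It was 1 with arrays of 1 label prefix only and 1 with the replicate block over all ages (Csf1 adjusted p 0.0557). With arrays left out it was 1 to 2. Array weights added Csf1r (adjusted p 0.0212). Quantile normalization again lost Csf1 (adjusted p 0.0535) and added Csf1r (adjusted p 0.0312). In adult against P7 in corpus callosum the count was 3, and 2 to 4 over the alternatives. The change of the regional difference between adults and P7 called 0, but 1 (Csf1) with array weights, with genes above the median level only and with the replicate block. Between adults and P3 it called 0, and 1 (Csf2rb2, adjusted p 0.0176) with the replicate block. The replicate number is shared by label only, and 15 of 18 arrays correlated best with their own number, a hint from the data. Il34 could not be fitted under the filter on dim genes. Genes called ranged over the alternatives from 16 to 251 (112 in the fit reported) at P3, 48 to 236 (100) at P7 and 1 to 3 (1) in adults between regions, 1567 to 3861 (2264) and 2917 to 4438 (3822) for adult against P7 in cortex and corpus callosum, 72 to 644 (196) and 13 to 506 (164) for P7 against P3, and 0 to 1 (0), 12 to 105 (45) and 0 to 190 (40) for the changes of regional difference, and 93 to 233 (137) for the regional difference averaged over ages. The number of arrays limits precision, and dim signals such as Il34 have no measured background.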
